A study of Mus musculus with 6 samples.

Results

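The genes described here encode the nuclear pore and the soluble receptors that carry proteins and RNA through it. They were taken by symbol, as those whose names begin with Nup, Xpo, Ipo, Kpna, Kpnb or Tnpo followed by a number or letter of the family, on a probe set paired with that symbol alone. Where a gene had several such probe sets the brightest was used. This gave 43 genes of the 19938 that could be named in this way: 18 nucleoporins, 11 import receptors of the importin beta family, 6 importin alpha adaptors, 6 exportins and 2 paralogs of pore proteins, Nup210l and Nup62cl. Nup35 had no such probe set and was not analysed here.

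RNA of whole thymus was measured on Affymetrix MoGene-1 arrays. The 3 RUNX2/MYC arrays came from mice of genotype CD2-Myc/CD2-Runx2, whose 2 transgenes are both under the control of CD2 elements and so act in T cells, and the 3 wild-type (WT) arrays from C57/CBA mice of the shared strain background. All mice were 10 days old, an age at which the transgenic thymus is premalignant, and each array was labelled as a separate biological replicate. Mice with only 1 of the transgenes were not analysed here, so that the values cannot be divided between RUNX2 and MYC.

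The nuclear pore is a ring of many copies of its subunits set in the nuclear envelope. An outer ring (the Y complex) and an inner ring form its frame, subunits with phenylalanine-glycine repeats fill its channel, and further subunits make up the cytoplasmic face and the nuclear basket. Import receptors bind cargo in the cytoplasm, either directly or through an importin alpha adaptor, and release it in the nucleus on binding RAN in its GTP form, whereas exportins bind their cargo together with RAN-GTP and release it in the cytoplasm. MYC is known for raising genes of growth and protein synthesis, which depend on traffic of ribosomal subunits, tRNA and proteins across the pore.

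The arrays were checked first. The probe set of Runx2, named from the gene list of the study, had log2 signals of 11.73, 11.78 and 11.96 on the RUNX2/MYC arrays and of 7.94, 7.94 and 7.93 on the WT arrays. The mouse Myc probe set had a log2 fold change of -0.48 (limma standard error, SE, 0.13; adjusted p = 0.119), and need not read a MYC transgene. Array medians ran from 7.31 to 7.49. Over all probe sets the arrays did not group by genotype alone. RUNX2/MYC replicate 1 correlated at 0.9886 and 0.9896 with WT replicates 1 and 2, and at 0.9871 and 0.9856 with RUNX2/MYC replicates 2 and 3. WT replicate 3 correlated at 0.9878 with RUNX2/MYC replicate 3, and at 0.9819 and 0.9875 with WT replicates 1 and 2. Of the 11 thymocyte markers measured none passed the test, 4 had a log2 fold change above 0 and 7 below, and the median was -0.025. Their median level ran from 11.60 to 11.99 on the RUNX2/MYC arrays and from 11.82 to 12.14 on the WT arrays. A fat marker stood apart on 1 array, RUNX2/MYC replicate 2, where Ucp1 had a log2 signal of 9.93 against 6.12 to 6.95 on the other 5; the median level of the 7 adipocyte markers was 7.79 there and 6.12 to 6.95 elsewhere. The median log2 fold change of the pore and receptor genes was 0.30 with that array and 0.30 without it.

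Of the 43 genes 4 were higher in RUNX2/MYC thymus and 0 lower (limma with Benjamini-Hochberg adjustment across the 35556 probe sets, threshold 0.05). The 4 were Xpot, which exports tRNA, Ipo4, an import receptor for histones and ribosomal proteins, Nup43 of the outer ring and Nup93 of the inner ring. They made up 9.3% of the genes, where 2.27% of all named genes were higher and 0.0953% lower. Before adjustment 24 of the 43 had p under 0.05, all of them higher, against 13.2% of all named genes higher. On 24 of them all 3 RUNX2/MYC arrays lay above all 3 WT arrays (15.5% of all named genes), on 1 they all lay below (11.2% of all named genes), and on 18 the groups overlapped. The median log2 fold change of the 43 was 0.30, against -0.065 over all named genes. It lay above 0 for 93% of the 43. The share was 40.2% of all named genes and 75.2% of those with a mean log2 signal of 9 or more. Without RUNX2/MYC replicate 2 or 3, or without WT replicate 1 or 2, 0 of the 43 passed, and over the whole array 3 or 4 probe sets did. Without RUNX2/MYC replicate 1 or WT replicate 3, 3 passed. Over the whole array 872 probe sets were higher and 718 lower without the former, and 540 and 75 without the latter. With all arrays 596 were higher and 45 lower.

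**Figure D1:**
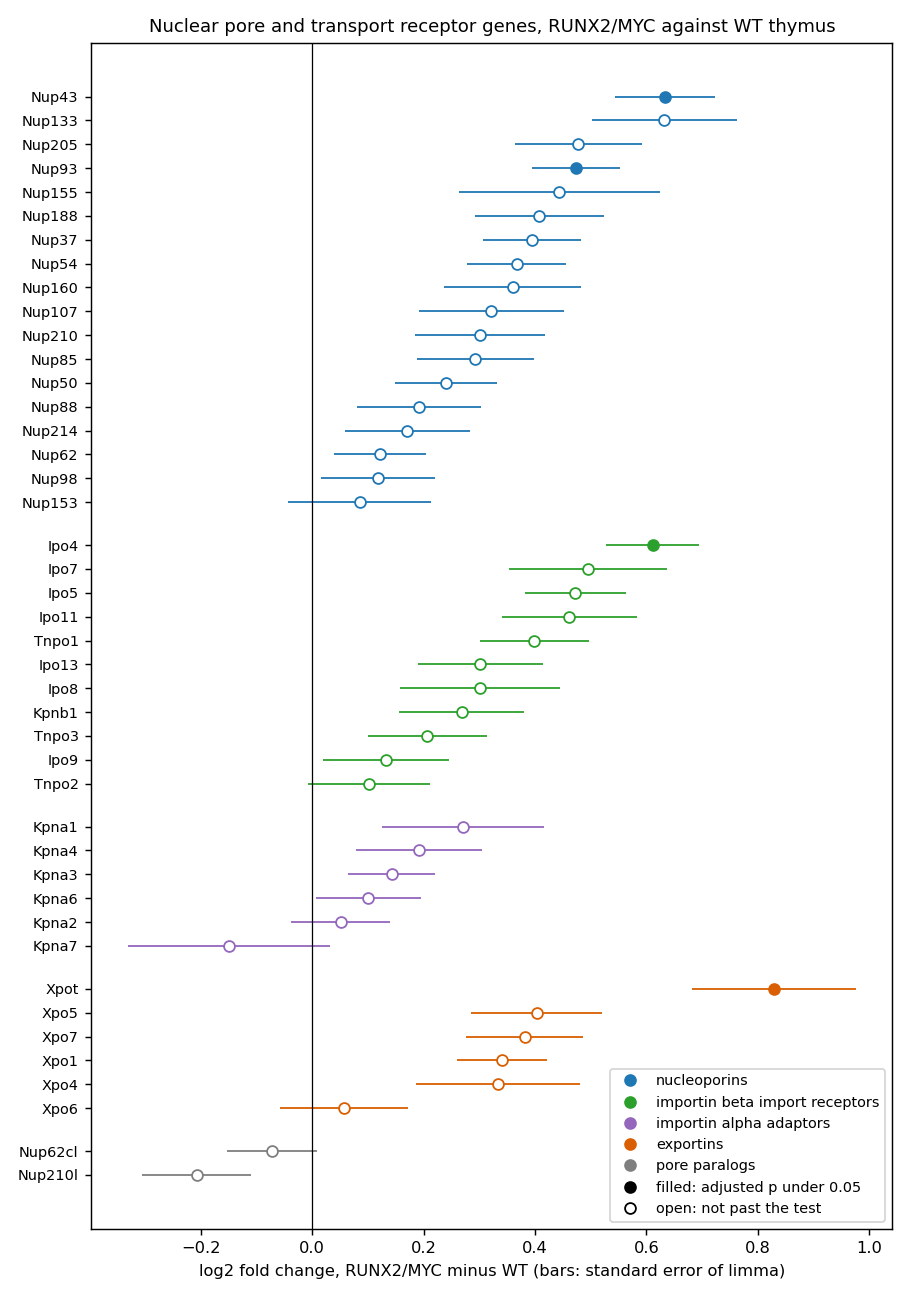
Log2 fold change (RUNX2/MYC minus WT, 3 arrays each) of the 43 genes by class, with the standard error of limma as bars. Filled points are the 4 genes past an adjusted p of 0.05 (Xpot, Nup43, Ipo4 and Nup93), and 40 of the 43 points lie above 0. Of all named genes 40.2% lay above 0, and of those with a mean log2 signal of 9 or more 75.2% did.

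Fold changes differed by signal level, but did not rise with it throughout. In bins of 1 log2 unit the median over all named genes was -0.13 from 7 log2 units, 0.17 from 9 and 0.055 from 12. Of the 43 genes 38 had a mean log2 signal of 9 or more, a level chosen after the values were seen. Among the 5155 named genes at that level 5.12% were higher by the test, on 33.7% all 3 RUNX2/MYC arrays lay above all WT arrays, and the median log2 fold change was 0.14. Of the 38 pore and receptor genes at that level 3 passed (7.89%), 23 were without overlap above (60.5%) and the median log2 fold change was 0.31. The share past the test was thus close to that of other bright genes, while the share without overlap and the median were above theirs. Within bins of 1 log2 unit of signal, 38 of the 43 genes lay above the median of all named genes in their bin, at a median distance of 0.16. From 9 to 10 log2 units the median was 0.38 for 16 of these genes and 0.17 for all genes in the bin, and from 10 to 11 it was 0.27 for 17 and 0.12 for all. With cyclic loess, which levels fold change over signal, the median of the 43 was 0.17. The part of the signal level in these values was not tested further.

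**Figure D2:**
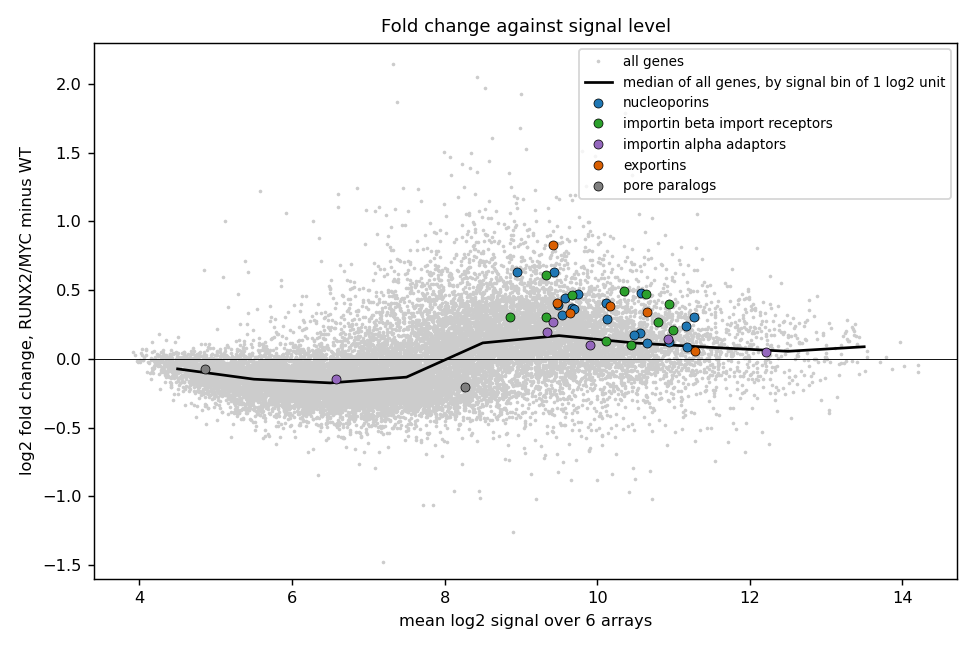
Log2 fold change (RUNX2/MYC minus WT) against mean log2 signal over the 6 arrays for all 19938 named genes (grey) and the 43 genes by class (coloured); the line joins the medians of all named genes in bins of 1 log2 unit. Most coloured points at a signal of 9 or more lie above the line, and the importin alpha adaptors (purple) and pore paralogs (grey circles) lie near or below it.

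Exportins carry cargo out of the nucleus. Xpot, the receptor for mature tRNA, had the largest log2 fold change of the 43 genes. Xpot had log2 signals of 9.78, 9.78 and 9.96 on the RUNX2/MYC arrays and of 8.82, 8.89 and 9.32 on the WT arrays. All RUNX2/MYC values lay above all WT values, and WT replicate 3 was the closest to them. The log2 fold change was 0.83 (SE 0.15, limma adjusted p = 0.047), or 1.78-fold, at rank 172 of the 19938 named genes. The adjusted p of Xpot lay close to the threshold. Its call was lost with the test that the methods name, whether with q values or Benjamini-Hochberg adjustment, with 75th percentile centring, with cyclic loess and without any 1 array other than WT replicate 3.

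Xpo1, the main exportin for proteins with a leucine-rich export signal and for ribosomal subunits, had log2 signals of 10.79, 10.82 and 10.86 on the RUNX2/MYC arrays and of 10.48, 10.44 and 10.54 on the WT arrays. The groups did not overlap and each spanned a narrow range, but the log2 fold change of 0.34 (SE 0.08) did not pass the test (limma adjusted p = 0.091). It passed with the test and q values that the methods name (q = 0.0269) and with array weights. Xpo5, which exports precursors of microRNA, had a log2 fold change of 0.40 (limma adjusted p = 0.142), and Xpo7 one of 0.38 (limma adjusted p = 0.124), both without overlap between the groups. Xpo4 lay at 0.33 with overlapping groups. Xpo6, the exportin of actin, had the smallest value of the class. Its log2 signals were 11.22, 11.31 and 11.39 on the RUNX2/MYC arrays and 11.06, 11.28 and 11.42 on the WT arrays, so that the groups overlapped throughout (log2 fold change 0.056, turning to -0.077 with cyclic loess, -0.041 with quantile normalization, -0.040 with 75th percentile centring and -0.039 without WT replicate 1). Over the class 1 of 6 passed (16.7%, against 2.27% of all named genes and 5.12% of the bright ones), and the median log2 fold change was 0.36.

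**Figure D3:**
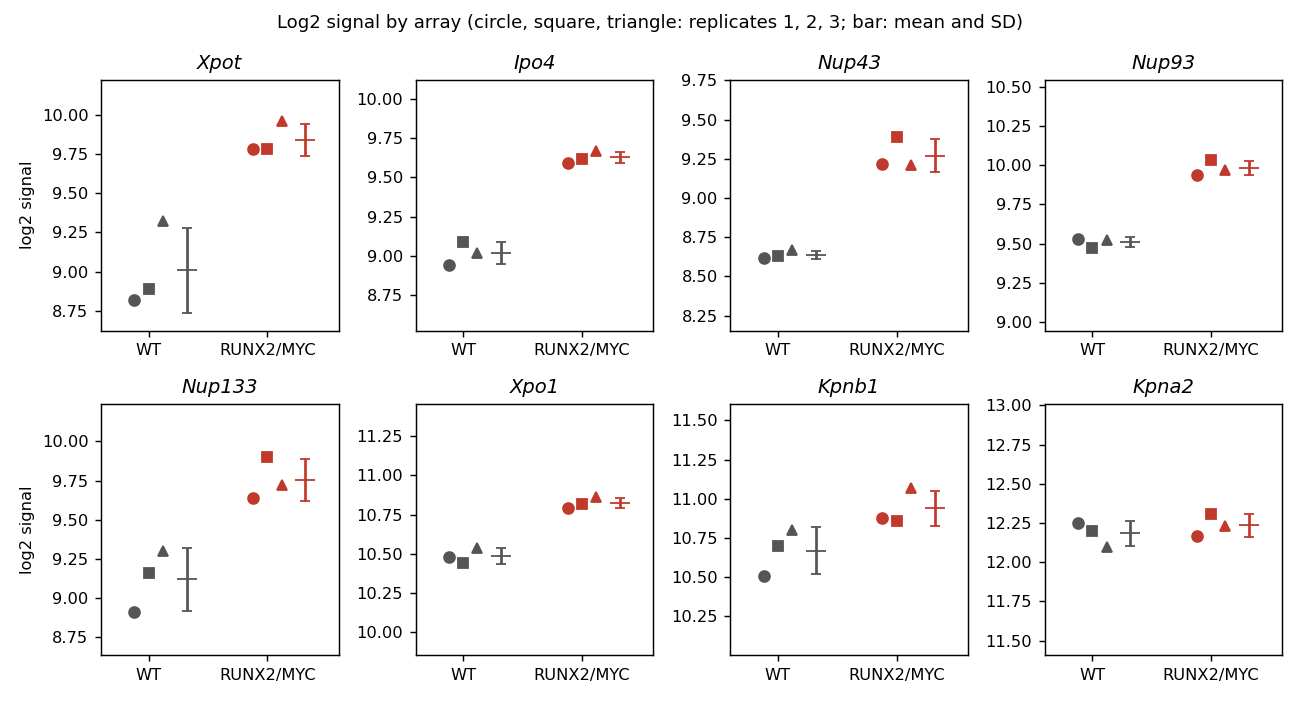
Log2 signal on each array for 8 genes, with WT in grey and RUNX2/MYC in red; circles, squares and triangles are replicates 1, 2 and 3, and the bars are the group mean and SD (n = 3). Each panel spans the same range of log2 units. The groups do not overlap for Xpot, Ipo4, Nup43, Nup93, Nup133, Xpo1 and Kpnb1, and overlap for Kpna2.

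Among the import receptors Ipo4 passed the test. Ipo4 had log2 signals of 9.59, 9.62 and 9.67 on the RUNX2/MYC arrays and of 8.94, 9.09 and 9.02 on the WT arrays. The spread within either group was small against the gap between them, and the log2 fold change was 0.61 (SE 0.08, limma adjusted p = 0.0245), or 1.53-fold. Of the 4 calls that of Ipo4 was kept under the most alternatives: it was lost with 75th percentile centring (limma adjusted p = 0.0722) and without RUNX2/MYC replicate 2 or 3 or WT replicate 1 or 2. Ipo7, which with Kpnb1 imports histone H1 and also carries ribosomal proteins, had log2 signals of 10.51, 10.55 and 10.73 on the RUNX2/MYC arrays and of 9.84, 10.12 and 10.33 on the WT arrays. The groups did not overlap, but the WT arrays were spread over a wide range and the log2 fold change of 0.49 did not pass (SE 0.14, limma adjusted p = 0.135).

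Ipo5, a further receptor for ribosomal proteins and histones, had the smallest adjusted p of the import receptors that missed the threshold. Its log2 signals were 10.83, 10.88 and 10.92 on the RUNX2/MYC arrays and 10.28, 10.44 and 10.49 on the WT arrays, which gave a log2 fold change of 0.47 (limma adjusted p = 0.0567). The groups lay apart, and the gene passed under 6 of the other settings, the q values of the methods among them (q = 0.0369). Ipo11 had a log2 fold change of 0.46, Tnpo1 (transportin, which imports RNA-binding proteins) of 0.40, Ipo13 of 0.30, Ipo8 of 0.30, Kpnb1 (importin beta itself, the partner of the importin alpha adaptors) of 0.27, Tnpo3 (the receptor of SR splicing factors) of 0.21 and Ipo9 of 0.13, which turned to -0.020 with cyclic loess. None of these passed. Tnpo2 had the smallest value of the class, with log2 signals of 10.34, 10.57 and 10.58 on the RUNX2/MYC arrays and of 10.31, 10.35 and 10.52 on the WT arrays. The groups overlapped, and the log2 fold change of 0.10 turned to -0.047 with cyclic loess. In all 1 of 11 import receptors passed, the groups were without overlap on 7, all of these above WT, and the median log2 fold change was 0.30. The 1 past the test is 9.09% of the class, against 2.27% of all named genes and 5.12% of the bright ones, and the 7 are 63.6%, against 15.5% and 33.7%.

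Of the importin alpha adaptors, which bind the classical nuclear localisation signal and hand the cargo to importin beta, 0 of 6 passed the test and 0 had an unadjusted p under 0.05 from limma. Of all named genes 2.27% were higher by the test and 13.2% before adjustment, and of the bright ones 5.12% and 27.9%. With 6 genes, 0 past the test is close to those shares of the test. The array weights were the only setting under which any of them passed, 2 of 6. That setting called 5766 of 35556 probe sets higher and 7318 lower. The highest log2 fold change of the class, 0.27, was that of Kpna1. Its log2 signals were 9.32, 9.63 and 9.70 on the RUNX2/MYC arrays and 9.13, 9.21 and 9.50 on the WT arrays, with RUNX2/MYC replicate 1 inside the WT range (SE 0.14, limma adjusted p = 0.305). Kpna4 had a log2 fold change of 0.19, Kpna3 of 0.14 and Kpna6 of 0.10, the last turning to -0.050 with cyclic loess. On Kpna3 the RUNX2/MYC arrays (10.98, 11.01 and 11.01) all lay above the WT arrays (10.86, 10.82 and 10.90), the sole gene of the class without overlap. This is 16.7% of the class, against 15.5% of all named genes and 33.7% of the bright ones.

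Kpna2, the adaptor most tied to dividing cells, had log2 signals of 12.17, 12.31 and 12.23 on the RUNX2/MYC arrays and of 12.25, 12.20 and 12.10 on the WT arrays. The groups overlapped, and the log2 fold change was 0.051 (SE 0.09, limma adjusted p = 0.725), turning to -0.028 with quantile normalization, -0.045 with 75th percentile centring and -0.058 with cyclic loess. All 3 probe sets named Kpna2 gave values from 0.041 to 0.063, although RefSeq also lists a pseudogene, Kpna2-ps, whose RNA these probe sets may not tell apart from that of the gene. Kpna7, an adaptor known from the egg and early embryo, was dim and had the lowest value of the class. Its log2 signals were 6.90, 6.42 and 6.18 on the RUNX2/MYC arrays and 6.68, 6.73 and 6.53 on the WT arrays, and its log2 fold change of -0.15 turned to 0.017 with cyclic loess and 0.0094 without RUNX2/MYC replicate 3. The median of the class was 0.12. The difference between this and the medians of the other classes was not tested.

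All 18 nucleoporins had a log2 fold change above 0, except that Nup153, Nup98 and Nup62 were below 0 with cyclic loess and Nup153 also with quantile normalization, 75th percentile centring and without WT replicate 1. A value above 0 was held by 40.2% of all named genes and 75.2% of the bright ones. Of the 18, 2 passed the test, 13 had an unadjusted p under 0.05 from limma, and 12 were without overlap, all of them above WT. These are 11.1%, 72.2% and 66.7% of the class, against 2.27%, 13.2% and 15.5% of all named genes and 5.12%, 27.9% and 33.7% of those with a mean log2 signal of 9 or more. The median log2 fold change was 0.34. In the outer ring, the Y complex that builds the frame of the pore on both faces, Nup43 passed. Nup43 had log2 signals of 9.22, 9.39 and 9.21 on the RUNX2/MYC arrays and of 8.62, 8.63 and 8.67 on the WT arrays. The WT arrays lay within a narrow range well below the others, and the log2 fold change was 0.63 (SE 0.09, limma adjusted p = 0.0264), or 1.55-fold. It was lost with the test of the methods under Benjamini-Hochberg adjustment (adjusted p = 0.0614 from that test), with 75th percentile centring, and in 4 of the 6 fits that left out 1 array.

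Nup133, a neighbour of Nup107 in the stem of the Y complex, had a log2 fold change almost as large. Its log2 signals were 9.64, 9.90 and 9.72 on the RUNX2/MYC arrays and 8.91, 9.16 and 9.30 on the WT arrays. The groups did not overlap, but the values within each were wider apart than those of Nup43, and the log2 fold change of 0.63 missed the threshold (SE 0.13, limma adjusted p = 0.0668). The other outer ring genes were Nup37 at 0.39, Nup160 at 0.36, Nup107 at 0.32 and Nup85, the lowest, at 0.29. Nup85 had log2 signals of 10.19, 10.33 and 10.29 on the RUNX2/MYC arrays and of 10.15, 9.91 and 9.88 on the WT arrays, without overlap. Over the module the median log2 fold change was 0.38, 5 of 6 genes were without overlap and 1 passed. The 5, all above WT, are 83.3%, against 15.5% of all named genes and 33.7% of the bright ones. The 1 past the test is 16.7%, against 2.27% and 5.12%.

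The inner ring, which lines the membrane pore and anchors the channel, had 4 genes measured and a median log2 fold change of 0.46. Nup205 had the highest value, 0.48 (SE 0.11, limma adjusted p = 0.0917), from log2 signals of 10.72, 10.80 and 10.93 on the RUNX2/MYC arrays and of 10.16, 10.46 and 10.40 on the WT arrays. The groups lay apart, with WT replicate 1 lowest. Nup93, the scaffold on which inner ring subunits assemble, had the closest replicates of the module, with log2 signals of 9.94, 10.03 and 9.97 on the RUNX2/MYC arrays and of 9.53, 9.47 and 9.52 on the WT arrays. Its log2 fold change of 0.47 (SE 0.08, limma adjusted p = 0.0405), or 1.39-fold, passed the test. The call of Nup93 was lost with quantile normalization, 75th percentile centring, cyclic loess and whichever 1 array was left out, other than RUNX2/MYC replicate 1. Nup155 had a log2 fold change of 0.44 with overlapping groups, and Nup188 one of 0.41. Nup188 had log2 signals of 10.25, 10.35 and 10.38 on the RUNX2/MYC arrays and of 9.70, 10.02 and 10.03 on the WT arrays, without overlap.

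No other nucleoporin passed. In the channel Nup54 had log2 signals of 9.86, 9.88 and 9.83 on the RUNX2/MYC arrays and of 9.57, 9.37 and 9.53 on the WT arrays, without overlap (log2 fold change 0.37, limma adjusted p = 0.0962). It passed with the test and q values of the methods (q = 0.0461) and with array weights, and so did Nup37 of the outer ring (q = 0.0396). Nup62, which binds Nup54 in the channel, lay at 0.12. Nup98, whose repeats also line the channel, had log2 signals of 10.61, 10.73 and 10.78 on the RUNX2/MYC arrays and of 10.45, 10.61 and 10.71 on the WT arrays. These groups overlapped, and the log2 fold change of 0.12 turned to -0.028 with cyclic loess. Nup210, a membrane protein of the pore, had log2 signals of 11.35, 11.43 and 11.47 on the RUNX2/MYC arrays and of 10.89, 11.19 and 11.26 on the WT arrays, without overlap (log2 fold change 0.30, limma adjusted p = 0.213).

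On the nuclear basket Nup50 had a log2 fold change of 0.24, with log2 signals of 11.23, 11.34 and 11.27 on the RUNX2/MYC arrays and of 11.14, 10.93 and 11.05 on the WT arrays, and the groups did not overlap. Nup153, the subunit that holds the basket to the pore, had log2 signals of 11.11, 11.26 and 11.28 on the RUNX2/MYC arrays and of 10.89, 11.18 and 11.32 on the WT arrays. WT replicate 3 was the highest of the 6, and the log2 fold change of 0.085 fell below 0 under 3 of the scalings and without WT replicate 1. On the cytoplasmic face, where messenger RNA leaves the pore, Nup88 had a log2 fold change of 0.19 and Nup214 of 0.17. Nup88 had log2 signals of 10.54, 10.72 and 10.73 on the RUNX2/MYC arrays and of 10.32, 10.47 and 10.62 on the WT arrays. Nup214 had log2 signals of 10.50, 10.51 and 10.68 on the RUNX2/MYC arrays and of 10.23, 10.40 and 10.55 on the WT arrays. Both overlapped through WT replicate 3.

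The 2 paralogs lay on the other side of 0. Nup210l, a relative of Nup210 known from the testis, had log2 signals of 8.10, 8.06 and 8.32 on the RUNX2/MYC arrays and of 8.34, 8.39 and 8.37 on the WT arrays. It was the sole gene of the 43 whose RUNX2/MYC arrays all lay below the WT arrays, and its log2 fold change of -0.21 did not pass the test (limma adjusted p = 0.265). Its 9 probe sets disagreed in sign, from -0.27 to 0.21. Nup62cl was dim, with log2 signals of 4.87, 4.79 and 4.81 on the RUNX2/MYC arrays and of 4.92, 4.93 and 4.84 on the WT arrays, and its log2 fold change of -0.072 turned to 0.012 with median centring.

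The genes moved with the array as well as with the group. RUNX2/MYC replicate 1 was the lowest of its group for 83.7% of the 43 genes, and for 77.6% of the named genes with a mean log2 signal of 9 or more. WT replicate 1 was the lowest of its group for 76.7% (50.1% of those bright genes) and WT replicate 3 the highest for 67.4% (64.5%). Taken relative to the WT mean of each gene, the median of the 43 was -0.13, 0.018 and 0.12 on WT replicates 1 to 3 and 0.21, 0.35 and 0.36 on RUNX2/MYC replicates 1 to 3. By these medians the closest arrays of the groups were WT replicate 3 and RUNX2/MYC replicate 1. All 6 exportins were highest on replicate 3 within both groups, and all 11 import receptors were lowest on replicate 1 within WT.

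**Figure D4:**
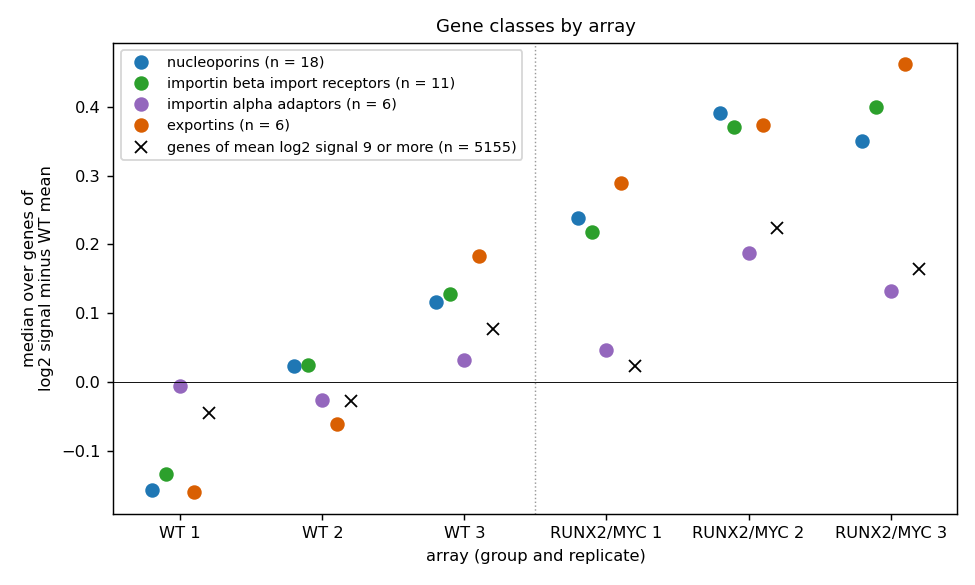
Median over the genes of each class of the log2 signal minus the gene's WT mean, for each of the 6 arrays, with the median of the 5155 named genes of mean log2 signal 9 or more as crosses. Nucleoporins, import receptors and exportins lie above 0.2 on all RUNX2/MYC arrays and below that on all WT arrays, and the importin alpha adaptors lie close to the crosses.

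A canonical MYC site, the E-box CACGTG, was searched in the promoters, since MYC and RUNX2 are the transgene products. RefSeq promoter windows of the GRCm38.p6 assembly, from 250 bases before to 50 bases from the transcript start on, were found for 35 of the 43 genes. Those of Nup43, Nup85, Nup210l, Kpna1, Kpna3, Kpna6, Xpo4 and Xpo7 were not in the table. The E-box, which reads the same on both strands, was present in 7 of the 35 (20.0%): Xpot, Ipo4, Ipo7, Nup93, Nup188, Nup54 and Tnpo2. It was present in 8.1% of 27025 genes with a window and in 13.1% of the 4229 of these with a mean log2 signal of 9 or more. The 7 include the 3 genes past the test that had a window, and also Tnpo2, the import receptor of smallest fold change. The median log2 fold change was 0.47 for the 7 and 0.29 for the other 28. TGTGGT, a core RUNX site, was searched on both strands and was present in 4 of the 35 (11.4%), which were Nup160, Nup54, Tnpo3 and Xpo5, against 18.9% of all genes and 13.7% of the bright ones. Xpo1 held neither motif in its window, whereas the paper counts it among genes with MYC and RUNX sites near each other. The paper searched consensus sites over wider windows. A match of letters is not evidence of binding.

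The E-boxes of the 3 genes past the test, of Ipo7 and of Tnpo2 are shown with 10 bases on either side, on the strand of the gene, the motif in capitals. They are shown because the genes past the test and the import receptor of smallest fold change hold the same motif.
Xpot: ctccagggagCACGTGcgcggtcctc
Ipo4: tcggagtctcCACGTGccgatcctcc
Nup93: caactccaacCACGTGggcgggagca
Ipo7: gggagccagcCACGTGggccgtgtcc
Tnpo2, upstream site: cttattctctCACGTGactcaacttg
Tnpo2, downstream site: tgtgccagatCACGTGtgagtgcttc

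In GRCm38.p6 the E-box of Xpot lies at chr10:121626558-121626563 on the minus strand, 231 bases before the transcript start of the table. That of Ipo4 lies at chr14:55635665-55635670 on the minus strand, just inside the transcript of its window, its leading base being base 15 counted from that start. That of Nup93 lies at chr8:94214389-94214394 on the plus strand, 175 bases before the start, and that of Ipo7 at chr7:110018178-110018183 on the plus strand, 137 bases before. The sites of Tnpo2 lie at chr8:85036738-85036743 and chr8:85036777-85036782 on the plus strand, 155 and 116 bases before the transcript start of the window that held them. Nup93 and Tnpo2 each had a further window, at another transcript start, without an E-box. Nup188 also held 2 E-boxes and Nup54 held 1. The RefSeq gene bounds of Xpot and Ipo4 reach to 121626506 and 55635868, which are not the transcript starts of their windows. The distances given hold for the transcript starts of the windows alone.

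Partner genes of nuclear transport outside these name families were read from the same fit. Of 40 measured, 0 passed in either direction (before adjustment, limma gave 20 with p under 0.05, every one of them higher), 26 were without overlap above WT and 0 below, and the median log2 fold change was 0.25. Over all named genes the shares were 2.27% past the test and higher, 13.2% higher before adjustment, 15.5% without overlap above (33.7% of those with a mean log2 signal of 9 or more) and 11.2% below. The count past the test depended on the setting: 25 passed with array weights and 6 when the adjustment covered probe sets of 1 gene alone. Over the whole array these settings called 5766 of 35556 and 1236 of 21789 probe sets higher, and 7318 and 149 lower.

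In the RAN cycle, which gives transport its direction, 6 genes had a median log2 fold change of 0.30. Rangrf, a guanine nucleotide release factor of RAN, was highest at 0.56 and Rangap1, which makes RAN hydrolyse GTP in the cytoplasm, lowest at 0.12. Ran had log2 signals of 10.99, 10.99 and 10.90 on the RUNX2/MYC arrays and of 10.55, 10.65 and 10.70 on the WT arrays, without overlap (log2 fold change 0.33, limma adjusted p = 0.111). Rcc1, the nuclear exchange factor that loads RAN with GTP, had a log2 fold change of 0.40 (limma adjusted p = 0.0656).

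Among 12 other pore proteins the median log2 fold change was 0.26. Rae1, an mRNA export factor that binds Nup98, was highest at 0.45 (limma adjusted p = 0.0562), Aaas of the cytoplasmic face lay at 0.40, and Mad1l1, a spindle checkpoint protein that docks at the basket, was lowest at -0.085. Nupl1 and Nupl2, pore subunits whose symbols fall outside the families above, had log2 fold changes of 0.19 and 0.31. The 8 other transport receptors had a median of 0.13, from -0.22 for Heatr3 to 0.32 for Snupn, the import adaptor of spliceosomal particles. Cse1l, which returns importin alpha to the cytoplasm, had log2 signals of 12.00, 12.04 and 12.07 on the RUNX2/MYC arrays and of 11.80, 11.79 and 11.82 on the WT arrays. The groups of Cse1l lay clearly apart with close replicates, but its log2 fold change of 0.23 did not pass (limma adjusted p = 0.177). For 14 genes of mRNA export the median was 0.28, all above 0, from 0.14 for Thoc2 to 0.56 for Thoc1, both of the THO complex. Values above 0 were held by 40.2% of all named genes and 75.2% of the bright ones.

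Whole thymus mixes cell types, and fewer cells of a type cannot be told apart from less RNA per cell. The 9 thymic epithelium markers all had log2 fold changes below 0, with a median of -0.27, and 7 of them were without overlap below WT (11.2% of all named genes were), although none passed the test. Their median level ran from 8.77 to 8.85 on the RUNX2/MYC arrays and from 9.0 to 9.08 on the WT arrays. The B cell (4 genes), dendritic cell and macrophage (6) and fibroblast (6) markers had medians of -0.25, -0.16 and -0.13. The median mean log2 signal was 8.92 for the epithelium list and 7.11, 8.04 and 8.34 for these lists. The 14783 named genes of mean log2 signal under 9 had a median log2 fold change of -0.12, and 27.9% of them lay above 0. By bin it was -0.13 from 7 log2 units and 0.12 from 8. The part of signal level in the marker values was not tested. Of the 3 erythroid markers, none of which passed, Alas2 had a log2 fold change of 1.17 (0.75 without RUNX2/MYC replicate 1), Slc4a1 of 0.64 and Epb42 of -0.053. Their part in the values of the pore and receptor genes was not tested.

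Genes of cell division, in which the pore is taken apart and rebuilt, gave smaller values. The 11 measured had a median log2 fold change of 0.068 and 0 passed (2.27% of all named genes were higher by the test). Of the 11, 7 lay above 0 (63.6%, against 40.2% of all named genes and 75.2% of the bright ones). Without overlap above WT were 2 (18.2%, against 15.5% and 33.7%), and 1 below (11.2% of all named genes). Their median level was 11.53 to 11.69 on the RUNX2/MYC arrays and 11.57 to 11.70 on the WT arrays. All named genes had a median log2 fold change of 0.083 in the bin from 11 log2 units and 0.055 in that from 12. The thymocyte markers, of which none passed, went both ways: Cd4 (log2 fold change -0.74), Rag1, which starts receptor gene rearrangement (-0.62), and Dntt, which adds bases to the junctions (-0.52), lay wholly below WT, Cd3d (0.32) lay wholly above, and the other 7 overlapped, among them Cd8a (0.10), Cd2 (0.16) and Cd3e (-0.021). Of all named genes 11.2% lay wholly below WT and 15.5% wholly above.

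**Figure D5:**
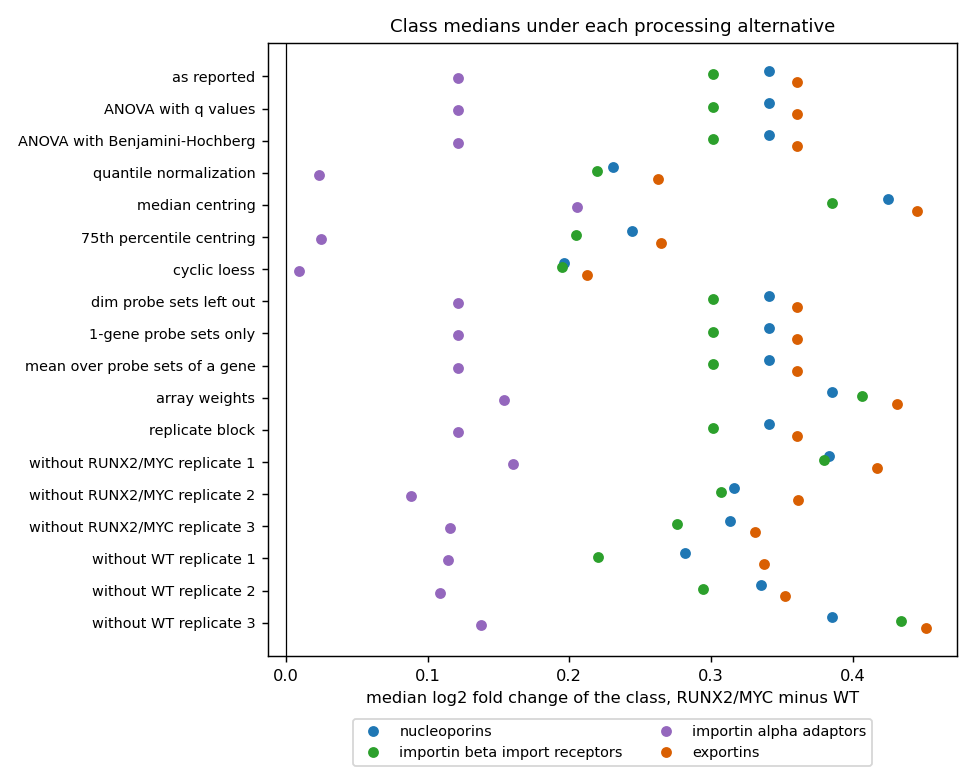
Median log2 fold change (RUNX2/MYC minus WT) of 4 gene classes as reported and under the 17 processing alternatives, one row each. All medians lie above 0. The lowest of each class is that with cyclic loess (0.20 for nucleoporins, 0.19 for import receptors, 0.21 for exportins and 0.0096 for the importin alpha adaptors).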

How the data were processed

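RNA of 6 thymus samples was hybridised to Affymetrix MoGene-1 arrays. The authors deposited log2 signals per probe set, and these were not normalized again. RMA, a background correction, between-array normalization and summary of probes, and Affymetrix Expression Console 1.4 are named in the submitters' processing notes. The methods instead describe Partek Genomics Suite and an adjustment for GC content, and which of these made the values was not settled. Such scaling can move small fold changes. Symbols came from GEO's platform annotation, which pairs 21789 of 35556 probe sets with 1 symbol, 1621 with several and 12146 with none. Each gene was read from the brightest of its 1-symbol probe sets.

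Groups were compared with limma 3.58.1 in R 4.3.3 (linear model, empirical Bayes, Benjamini-Hochberg over all probe sets, adjusted p under 0.05), tested on simulated data. The 17 alternatives covered the test, scaling, filters, array weights, a replicate block and leaving out each array. Values per array are given for the genes past the test and for the highest and lowest log2 fold change of each class, and for a few others chosen after their values were seen. The genes and lists were chosen with earlier results of these data known. The 3 arrays per group limit the precision: the smallest p of an exact permutation test for 1 value is 0.1.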

Additional observations from a re-analysis of the deposited data

How the results depend on the processing

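The number of the 43 genes that were higher was 4 as reported. It was 7 with the test and q values that the methods name (3 of them shared), 2 with that test under Benjamini-Hochberg adjustment, 0 with 75th percentile centring, 2 with cyclic loess, 10 with probe sets of 1 gene alone, 29 with array weights and 0 to 3 when 1 array was left out. It was 11 with the replicate block and stayed within 1.5 times under the remaining settings, and 0 were lower under all 17. Over the whole array 596 of 35556 probe sets were higher and 45 lower as reported. Array weights gave 5766 higher and 7318 lower, the replicate block 1654 and 763, and the q values 1213 and 247. With probe sets of 1 gene alone 1236 were higher and 149 lower, of 21789. Of the 40 partner genes 0 were higher as reported, 5 with q values, 1 with Benjamini-Hochberg adjustment of that test, 3 with median centring, 1 without dim probe sets, 6 with probe sets of 1 gene alone and 25 with array weights, the last also giving 1 lower. The median log2 fold change of the 43 moved beyond the spread between replicates (SD 0.13) with cyclic loess alone, to 0.17. The 11 genes with the replicate block hold the 4, and the block raised the count of partners to 4. Whether the replicate numbers pair the arrays was not settled. Same-numbered arrays deviated together in replicates 1 and 3 (correlations 0.50 and 0.61) but not in replicate 2 (-0.15). RUNX2/MYC replicate 2 correlated best with WT replicate 3 (0.21). With so few arrays per group, deviations from the group mean cannot decide the pairing. The methods name controls matched by litter, but the sample labels name no litter.

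Signs turned for small values. Nup153 was -0.017 with quantile normalization, -0.011 with 75th percentile centring, -0.050 with cyclic loess and -0.034 to 0.18 when 1 array was left out. Xpo6 was -0.041, -0.040 and -0.077 under those scalings and -0.039 to 0.14. Cyclic loess also gave 0.017 for Kpna7 (-0.35 to 0.0094 with 1 array left out), -0.028 for Nup98 and -0.047 for Tnpo2, and median centring 0.012 for Nup62cl. Kpna2 was -0.028, -0.045 and -0.058 with quantile normalization, 75th percentile centring and cyclic loess, and cyclic loess gave -0.050 for Kpna6, -0.020 for Ipo9 and -0.019 for Nup62. Of 339 values of 20 genes named by rule, 288 kept direction and side of the threshold, 28 lost the call, 10 gained it and 13 turned sign. Of the 43 genes 33 had a log2 fold change above 0 with cyclic loess against 40 as reported. Causes were not tested.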
